A study of Mus musculus with 2 samples.

Results

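The Nanog-negative cells described here are mouse embryonic stem cells (mESCs) in which single-cell RNA-seq counted no Nanog transcript. They were chosen by their own Nanog reading, among cells with at least 1000 detected genes, at most 5% mitochondrial transcripts and at least 20000 unique molecular identifiers (UMIs, each standing for 1 captured transcript). There were 128 of them among 2113 WT cells and 211 among 2689 cells of the library labelled S1/5 dKO, or 339 of 4802 cells in all. Each was compared with cells of the same library and the same filters that held at least 6 Nanog UMIs, of which there were 980 in WT and 1111 in S1/5 dKO. The 1005 WT and 1367 S1/5 dKO cells with 1 to 5 Nanog UMIs stood between them. No cell barcode was shared by the filtered cells of the libraries.

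The study profiled the parental E14 line, which is wild-type and grows without feeder cells, and a Smad1/5 double knockout line made from it with CRISPR-Cas9. Both grew on gelatin in a medium called SL, with 15% fetal bovine serum and leukemia inhibitory factor (LIF) at 1000 U/ml. Each genotype was 1 droplet library of 3′ transcript ends, so no difference here carries a p-value, the error given is counting error alone, and a difference between the libraries cannot be told apart from a difference between 2 preparations. The sources used here do not say which knockout line or clone was loaded. Smad1 in the Nanog-negative cells was at 12.1 counts per 1000000 UMIs (CPM) in WT and 8.35 in S1/5 dKO, and Smad5 was at 6.05 and 11.6 CPM, so the Smad5 transcript was not lower under the knockout label and the label is used as given.

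NANOG is a homeodomain protein that stabilises self-renewal of mESCs, and cultures with serum are known to hold cells of very different NANOG level. ESRRB, KLF4, TBX3 and ZFP42 (also known as REX1) mark or sustain the naive state, the form of pluripotency found before implantation, together with NANOG. OTX2 is a homeodomain protein that guides cells out of it, whereas OCT4 (encoded by Pou5f1) and SOX2 are shared by naive and later pluripotent states.

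Nanog lies on the plus strand at chr6:122707489-122714633 (GRCm38, GENCODE vM21). OCT4 and SOX2 are known to bind a joint element just upstream of it, which is shown because the cells were chosen by the transcript of this gene and because Pou5f1 and Sox2 are among the transcripts described in them. RefSeq sequence of chr6:122707384-122707457 (GRCm38.p6, plus strand) carries in capitals the octamer letters TTTGCAT and, 1 base later, the SOX letters ACAATG.
Nanog promoter: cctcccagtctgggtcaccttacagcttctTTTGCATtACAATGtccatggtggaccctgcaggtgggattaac
The capitals span bases 75 to 62 before the annotated start. Searched on both strands with the 1-base spacing, these exact letters occurred in 2 of 32851 RefSeq promoter windows of 300 bases (0.00609%), and both windows belong to Nanog. The letters are those of the Nanog window, so its match was fixed beforehand. Other spellings of the motifs were not counted, so the share does not measure how rare the joint element is. No binding was measured in these libraries.

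Nanog-negative cells made up 6.06% of WT cells (exact 95% binomial interval 5.08 to 7.16) and 7.85% of S1/5 dKO cells (6.86 to 8.93). They were the low end of a continuous distribution. The median cell held 5 Nanog UMIs in WT and 4 in S1/5 dKO, the mean was 6.18 and 5.64, and the highest cell held 53 and 33.

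Depth moved with membership. The Nanog-negative cells had a median of 33383 UMIs in WT (20431 to 64100) and 29917 in S1/5 dKO (20100 to 69000), against 47083.5 and 43095 in the cells with at least 6 Nanog UMIs. Their share went from 12.4% of the WT cells with 20000 to 30000 UMIs to 1.31% of those over 60000, and from 14.1% to 1.28% in S1/5 dKO. After each cell had been thinned at random to 20000 UMIs, 15.0% of WT cells (13.5 to 16.5) and 14.5% of S1/5 dKO cells (13.2 to 15.9) held no Nanog UMI, so at equal depth the libraries differed by less than their counting error. A reading of 0 also did not exclude a low level. It allowed up to 89.9 CPM at the median depth of the WT members and 100.3 CPM at that of the S1/5 dKO members, against 193 and 216 CPM in the cells with at least 6 UMIs. Free RNA, read from barcodes with 10 to 100 UMIs, contained Nanog at 141 and 134 CPM.

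**Figure D1:**
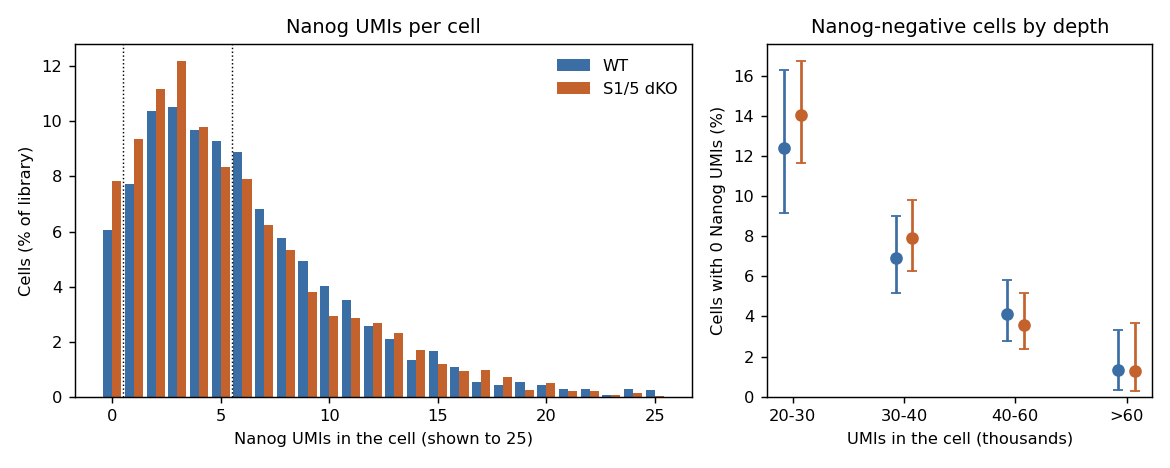
Left, percent of each library's cells (y axis) at each number of Nanog UMIs (x axis, drawn to 25), with dotted lines that bound the Nanog-negative cells and the cells with at least 6 UMIs. Right, percent of cells with 0 Nanog UMIs by the UMIs of the cell, with exact 95% binomial intervals as bars. The share went from 12.4% to 1.31% in WT and from 14.1% to 1.28% in S1/5 dKO, and the intervals of the libraries overlapped in every bin.

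Just inside the depth limit, the shallowest members held 20431 UMIs in WT and 20100 in S1/5 dKO, and the deepest Nanog-negative cells left out held 19788 and 19889. Other measures of quality were close. The median mitochondrial share was 1.82% in the members of both libraries, against 1.66% and 1.81% in the comparison cells. Transcripts of ribosomal proteins took a median of 28.3% and 28.1% of UMIs in the members and 27.4% and 26.6% in the comparison cells.

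The UMIs of all members of a library were summed, as were those of its comparison cells, and the CPM of each gene was expressed as a log2 ratio of the members over the comparison cells, with an exact 95% interval for counting error. Genes with at least 200 UMIs over both sets in each library were compared (8770, Nanog left out). In WT, 3.66% of them were at least 1.5-fold higher in the Nanog-negative cells and 4.06% at least 1.5-fold lower. In S1/5 dKO, the shares were 3.25% and 5.67%. In both libraries together, 155 genes were at least 1.5-fold higher (1.77%) and 181 at least 1.5-fold lower (2.06%), and "higher" or "lower" below refers to this joint criterion unless values for one library are given. The sign of the ratio was shared by 6022 genes (68.7%), and the median ratio over all genes was -0.03 in WT and -0.04 in S1/5 dKO.

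Genes of the naive list were at lower levels in the Nanog-negative cells. Of its 19 genes besides Nanog, 17 reached the UMI minimum, and none was higher while 6 were lower, namely Klf4, Tbx3, Tcl1, Fgf4, Nr5a2 and Tet2. The median log2 ratio of the 17 was -0.51 in WT and -0.87 in S1/5 dKO. Only Sox15 in WT had a ratio above 0 (0.23, interval -0.28 to 0.70). The genes left out by the minimum were Prdm14, with 4 and 5 UMIs in the members of WT and S1/5 dKO, and Dppa3, with 7 and 39.

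Klf4, a zinc finger activator downstream of LIF (chr4:55527143-55532466), was at 76.6 CPM in the WT members and 145 CPM in the comparison cells, a 1.90-fold difference (log2 ratio -0.92, -1.08 to -0.77). Its levels in S1/5 dKO were 90.6 and 171 CPM (-0.91, -1.04 to -0.80). The libraries thus gave almost the same ratio. At a fixed 20000 UMIs, 65.6% of WT members and 72.0% of S1/5 dKO members held a Klf4 UMI, against 87.7% and 91.4% of comparison cells.

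Tbx3, a T-box factor of the naive network (chr5:119670669-119684724), was lower by 0.78 on the log2 scale in WT (40.1 against 68.9 CPM) and by 1.52 in S1/5 dKO (32.2 against 92.6 CPM). Its intervals (-1.01 to -0.56 and -1.73 to -1.33) did not overlap between the libraries. Tfcp2l1, a LIF-responsive naive factor, had a similar split, with -0.57 in WT (-0.80 to -0.34) and -1.20 in S1/5 dKO (-1.42 to -0.99). Zfp42, which encodes a zinc finger protein used as a naive marker (chr8:43295063-43306980), was at 650 against 915 CPM in WT (-0.49) and 621 against 972 CPM in S1/5 dKO (-0.65). Esrrb, an orphan nuclear receptor (chr12:86361117-86521628), was at 33.4 against 47.0 CPM (-0.50, -0.74 to -0.26) and 37.9 against 52.3 CPM (-0.47, -0.66 to -0.28). Both markers stayed short of 1.5-fold in at least 1 library, and all but 1 member of each library still held a Zfp42 UMI.

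The remaining lower genes of the list act in different ways. Fgf4, the ligand that drives ERK signaling in mESCs, had ratios of -0.78 in WT and -1.04 in S1/5 dKO. Tet2, a dioxygenase that oxidises methylated cytosine, had -0.68 and -1.10. Tcl1, a cofactor of AKT, had -0.70 and -1.02, and Nr5a2, a nuclear receptor, had -0.70 and -0.98. Klf2, another zinc finger factor of the naive state, was 1.42-fold lower in WT and 1.45-fold lower in S1/5 dKO and so did not reach the criterion. Spp1, which encodes the secreted protein osteopontin, was at 534 against 765 CPM in WT (-0.52) and at 403 against 769 CPM in S1/5 dKO (-0.93), past 1.5-fold in S1/5 dKO alone. Manba, a lysosomal mannosidase gene, had -0.41 and -0.87. Dppa5a, a very abundant transcript of pluripotent cells, had -0.10 in WT and -0.42 in S1/5 dKO.

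**Figure D2:**
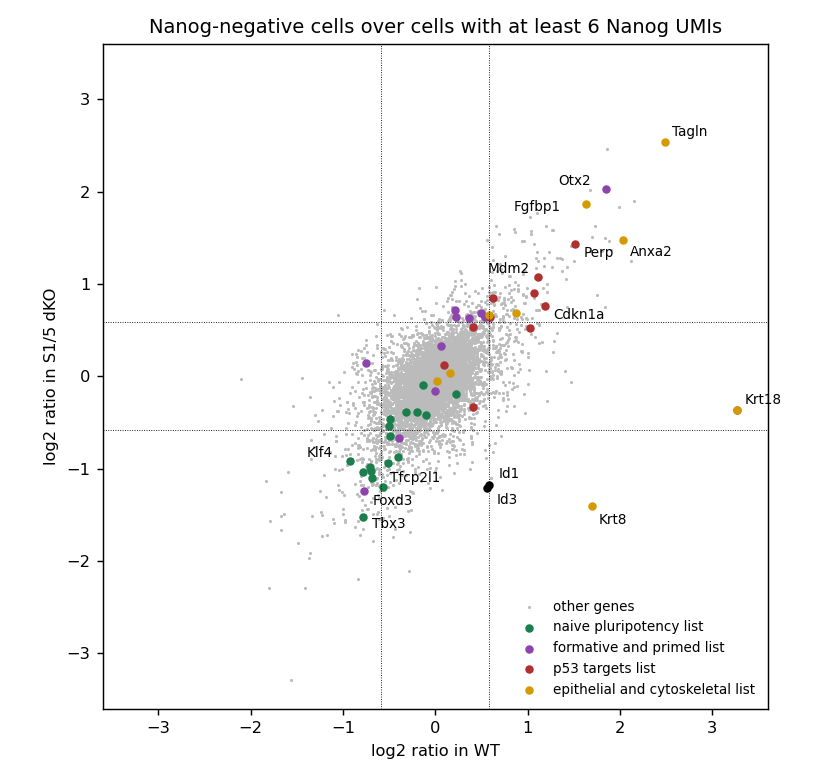
Log2 ratio of Nanog-negative cells over cells with at least 6 Nanog UMIs in WT (x axis) and S1/5 dKO (y axis) for the genes that reached the UMI minimum, with dotted lines at 1.5-fold and 2 genes outside the drawn range. Genes of the naive list lie at or below 0 apart from Sox15 in WT, p53 targets lie mostly in the upper right, and Id1, Id3 and Krt8 lie in the lower right, higher in WT and lower in S1/5 dKO.

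Transcripts of the core factors differed little. All 12 genes of the core list were compared and none was called, where the joint shares over all genes were 1.77% higher and 2.06% lower. Pou5f1 was at 1234 CPM in the WT members and 1338 CPM in the comparison cells (-0.12), and at 1226 and 1329 CPM in S1/5 dKO (-0.12). Every member held at least 1 Pou5f1 UMI, and at 20000 UMIs the median member held 24 in WT and 25 in S1/5 dKO, against 26 in both sets of comparison cells. Sox2 had ratios of 0.05 (-0.04 to 0.14) and 0.15 (0.08 to 0.22). Tdgf1, which encodes the NODAL coreceptor CRIPTO, had the lowest core ratio in S1/5 dKO (-0.61), with -0.41 in WT.

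Few genes of the formative and primed list were called. Of its 18 genes 12 were compared, with 1 higher (Otx2), 1 lower (Foxd3) and median ratios of 0.21 and 0.48. Otx2 (chr14:48657677-48673819) was at 10.8 CPM in the WT members and 2.99 CPM in the comparison cells, 3.59-fold higher (log2 ratio 1.84, 1.35 to 2.32). The S1/5 dKO levels were 13.7 and 3.35 CPM, 4.09-fold higher (2.03, 1.65 to 2.41). Its UMIs came from 33 of 128 WT members (25.8%) and 46 of 211 S1/5 dKO members (21.8%), and no member held more than 3 in WT or 5 in S1/5 dKO. At a fixed 20000 UMIs, 14.8% of WT members held one (9.18 to 22.2) against 5.41% of comparison cells (4.08 to 7.01), and in S1/5 dKO the shares were 16.6% (11.8 to 22.3) and 5.76% (4.46 to 7.30). Free RNA held Otx2 at 3.97 and 5.11 CPM. These libraries contain no population known to lack Otx2 that could serve as a background.

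Other members of that list differed less. Dnmt3a, a de novo DNA methyltransferase, had ratios of 0.54 in WT and 0.65 in S1/5 dKO. Dnmt3b, its partner enzyme, had 0.06 and 0.33. Pou3f1, which encodes the epiblast factor OCT6, had 0.22 (-0.15 to 0.57) and 0.65 (0.39 to 0.90). Foxd3, a forkhead factor, went the other way from Otx2, with -0.78 (-1.05 to -0.51) and -1.24 (-1.49 to -1.0), and lost its call against all cells with a Nanog UMI. Fgf5, a ligand used as a primed marker, had no UMI in any member of either library. That 0 allowed up to 3 UMIs over the summed members of a library.

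Most p53 targets of the list were higher. All 10 of its genes were compared, 6 were higher and none lower, and the median ratio was 0.83 in WT and 0.70 in S1/5 dKO. Mdm2, the ubiquitin ligase that limits p53 (chr10:117688875-117710758), was at 131 against 60.4 CPM in WT (log2 ratio 1.12, 0.99 to 1.24) and at 99.1 against 47.0 CPM in S1/5 dKO (1.08, 0.95 to 1.20). Cdkn1a, which encodes the cyclin-dependent kinase inhibitor p21, was at 61.4 against 27.0 CPM (1.18, 0.99 to 1.37) and 46.5 against 27.4 CPM (0.76, 0.58 to 0.94). Perp, a desmosomal p53 target, was 2.85-fold higher in WT and 2.70-fold higher in S1/5 dKO.

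The other higher members were Trp53inp1 (1.07 and 0.90), Phlda3 (0.62 and 0.85) and Ccng1 (0.60 and 0.64). Zmat3 had 0.41 and 0.54, Eda2r 1.03 and 0.53, and Bax, a pore-forming death effector, 0.09 and 0.12. Sesn1 had 0.41 (-0.30 to 1.05) in WT and -0.33 (-1.0 to 0.28) in S1/5 dKO. Ccng1 and Phlda3 lost the call when comparison cells were weighted to the members' depth, when only cells with at least 30000 UMIs were used, when the comparison took all cells with a Nanog UMI, and without the cell with most UMIs of the gene in each set. Ccng1 also lost it under TMM scaling, and the other 4 kept it under every alternative in which they were tested.

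The naive and p53 lists were also summed in each cell. At 20000 UMIs the summed UMIs of the naive genes without Nanog and the abundant Dppa5a had a median of 52.5 in the WT members and 71 in the comparison cells. The medians in S1/5 dKO were 51 and 76. The sum lay under the comparison cells' 10th percentile in 64 of 128 WT members (50%, 41 to 59.0) and in 133 of 211 S1/5 dKO members (63.0%, 56.1 to 69.6), so the distributions overlapped. The p53 sum had medians of 31 against 24 in WT and 30 against 25 in S1/5 dKO, and it lay above the comparison cells' 90th percentile in 30.5% (22.6 to 39.2) and 32.7% (26.4 to 39.5) of members. Across the members, the naive and p53 sums had a Spearman correlation of -0.30 in 128 WT cells and -0.24 in 211 S1/5 dKO cells, against -0.05 and -0.03 in the comparison cells. These are descriptions of cells that share 1 library each.

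**Figure D3:**
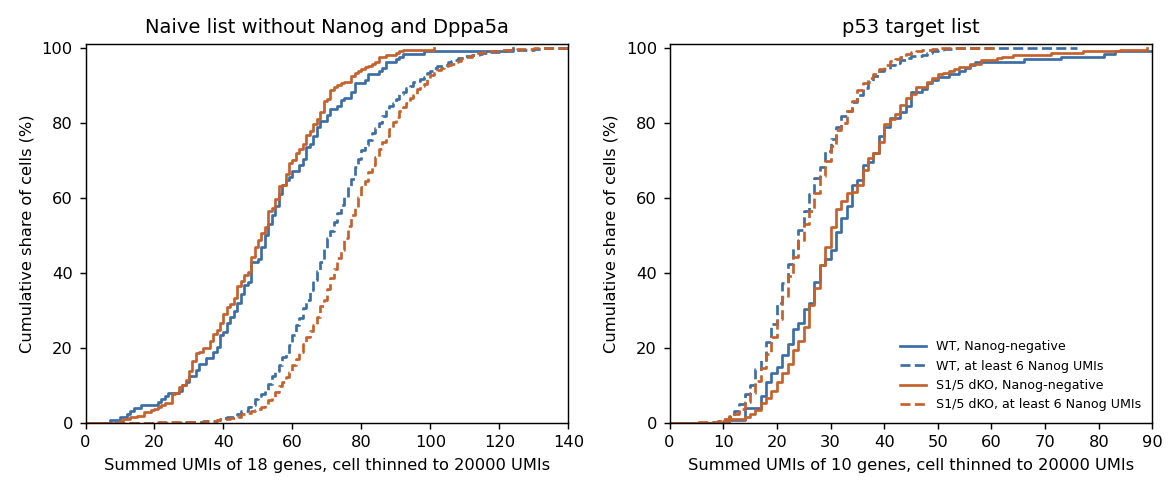
Cumulative percent of cells (y axis) by the summed UMIs of the naive list without Nanog and Dppa5a (left) and of the p53 target list (right), each cell thinned to 20000 UMIs. Solid lines are Nanog-negative cells and dashed lines cells with at least 6 Nanog UMIs. The medians of the naive sum were 52.5 against 71 in WT and 51 against 76 in S1/5 dKO, and those of the p53 sum were 31 against 24 and 30 against 25.

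No gene of the G2/M and S phase lists was called, although summed G2/M transcripts were lower in the median member. The joint shares over all genes were only 1.77% higher and 2.06% lower. All 20 genes of the G2/M list were compared, and the median ratio was -0.34 in WT and -0.21 in S1/5 dKO. At 20000 UMIs the members held a median of 60 G2/M UMIs in WT and 72 in S1/5 dKO, against 79 and 85 in the comparison cells. The S phase list (16 genes, none called) had medians of -0.09 and -0.15. With comparison cells weighted to the same share of UMIs in each of 3 classes of the G2/M sum, all 6 lower naive genes and all 6 higher p53 targets kept their calls.

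On the higher side, the 15 genes with the largest joint ratios were Tagln, Serpine2, Neurod1, Otx2, Lpar6, Klhl26, Cyr61, Fgfbp1, S100a6, Anxa3, Anxa2, Glipr2, Perp, Ddit4l and Plin2. Tagln encodes transgelin, an actin-binding protein of smooth muscle, and was at 76.8 against 13.7 CPM in WT (log2 ratio 2.49) and 34.0 against 5.83 CPM in S1/5 dKO (2.54). A single cell held 120 of the 343 WT UMIs and another 89 of the 228 S1/5 dKO UMIs. Without the top cell of each set the ratios were 2.15 and 1.91. At full depth, 30.5% of WT members (22.6 to 39.2) held a Tagln UMI, against 22.8% of comparison cells (20.2 to 25.5), so these intervals overlapped. The S1/5 dKO shares were 24.2% (18.6 to 30.5) and 13.7% (11.7 to 15.8). With each cell thinned, the upper quartile was 0 Tagln UMIs in members and comparison cells of both libraries. The highest thinned cell held 87 against 32 in WT and 51 against 17 in S1/5 dKO. Anxa2, which encodes an annexin, also leaned on single cells, with 2.03 and 1.48 falling to 1.51 and 1.03 without them. Glipr2 fell from 1.88 and 1.47 to 1.28 and 0.74 and was detected in 18 WT and 19 S1/5 dKO members.

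The rest of these genes were spread over more cells. Serpine2, an extracellular protease inhibitor, had ratios of 2.15 (1.87 to 2.41) and 1.90 (1.6 to 2.19) and was detected in 50% and 33.6% of members, against 23.9% and 17.2% of comparison cells. Fgfbp1, which encodes a carrier of secreted fibroblast growth factors, had 1.63 (1.42 to 1.83) and 1.87 (1.69 to 2.04). At 20000 UMIs it was detected in 43.0% of WT members and 42.7% of S1/5 dKO members, and in 20% and 19.1% of the comparison cells. Neurod1, a basic helix-loop-helix factor best known from neurons and endocrine cells, had 1.86 and 2.46 and was at 30 CPM in the members of both libraries. Lpar6 encodes a receptor for lysophosphatidic acid and had 1.99 and 1.84. The receptor gene Lpar1 was among the lowest genes, with -1.34 and -1.51.

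In the epithelial and cytoskeletal list, 9 of 12 genes were compared, 4 were higher (Tagln, Fgfbp1, Anxa2 and Lgals1) and none lower, with median ratios of 1.63 in WT and 0.66 in S1/5 dKO. Lgals1, a galectin gene, lost its call without its top cells and against all cells with a Nanog UMI. Summed per cell at 20000 UMIs, the list had a median of 9.5 in the WT members against 9 in the comparison cells, and of 9 against 8 in S1/5 dKO. The 90th percentiles were 21.3 against 16 and 20 against 15. A pair of WT members held 284 and 274 of these UMIs, against at most 64 in a WT comparison cell, and had 16 and 13 UMIs of the naive sum. The next WT member held 49. Leaving out the top cell of each set, as given above for Tagln and Anxa2, could not remove both cells of this pair. Epcam had 0.58 and 0.66, Cdh1, which encodes E-cadherin, 0.16 and 0.04, and Vim, an intermediate filament gene, 0.02 and -0.05. The keratins of the list differed between the libraries and are given with the Id genes.

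The lowest 15 genes were Gm21761, Gm5039, Gm13889, Dlgap3, Nkx6-3, Islr2, 2310030G06Rik, Inhbb, Gm20625, Rnd1, Nynrin, Slc11a1, Lpar1, Gm13580 and Sult6b1. Gm21761 and Gm5039 were there because of a few comparison cells. Single WT cells held 624 of the 629 Gm21761 UMIs and 227 of the 236 Gm5039 UMIs of the WT comparison cells, and with cells of at least 10 UMIs from the 2C, primitive endoderm or fibroblast lists left out the WT ratios were 1.22 and 0.74. Inhbb, which encodes the activin B subunit, was spread more widely, with 6.49 against 20.2 CPM in WT (-1.64, -2.22 to -1.11) and 8.94 against 25.2 CPM in S1/5 dKO (-1.50, -1.89 to -1.12). Dlgap3, a scaffold gene of the postsynaptic density, had -1.67 and -1.66. Nkx6-3, a homeobox gene, was at 3.58 against 10.6 CPM in WT (-1.57, -2.39 to -0.86) and 1.79 against 17.5 CPM in S1/5 dKO (-3.29, -4.25 to -2.48), and the intervals of the libraries did not overlap.

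Few genes of the signaling lists were called, where the joint shares over all genes were 1.77% higher and 2.06% lower. In the BMP list (6 of 8 compared), Id2 was higher and Bmp4, the ligand, was lower (-0.64 and -0.89), although Bmp4 lost its call under 5 alternatives, among them the depth and G2/M weights. In the LIF and STAT3 list (10 compared), only Klf4 was called, and Socs3, a feedback inhibitor induced by STAT3, had 0.18 and 0.29. In the FGF and ERK list (9 of 12), only Fgf4 was called, and the feedback genes Spry2 and Dusp6 had 0.17 and 0.34 in WT and 0.42 and 0.39 in S1/5 dKO. In the Wnt list (4 of 10), Sp5, a zinc finger target of β-catenin, was higher, with 0.66 (0.12 to 1.16) and 1.63 (1.35 to 1.91), but not without its top cells or under the mean over cells. None of the 6 compared Nodal pathway genes was called, although Lefty1, a NODAL antagonist, had 0.18 in WT and 0.91 (0.77 to 1.05) in S1/5 dKO. Among DNA methylation genes (8 of 10), only Tet2 was called.

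Of the lists for stress and metabolism, none of 11 ER stress genes and none of 15 glycolysis genes was called. The joint shares over all genes were 1.77% higher and 2.06% lower, so lists of this size may hold no call without differing from other genes. Ratios ran from -0.49 to 0.61 (ER stress) and from -0.36 to 0.30 (glycolysis) in WT. In S1/5 dKO they ran from -1.14 to 0.52 and from -1.07 to 0.47. Of 3 compared hypoxia genes, Ddit4, an inhibitor of mTOR complex 1, was higher (1.10 and 1.77).

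Id1 and Id3 went in opposite directions in the libraries. They encode helix-loop-helix proteins that block basic helix-loop-helix factors and are classical targets of BMP and SMAD1/5. Id1 (chr2:152736251-152737410) was at 466 CPM in the WT members and 310 CPM in the comparison cells (log2 ratio 0.59, 0.52 to 0.65), and at 84.1 and 190 CPM in S1/5 dKO (-1.18, -1.30 to -1.05). Id3 was at 145 and 98.4 CPM in WT (0.56, 0.44 to 0.68) and 28.9 and 66.7 CPM in S1/5 dKO (-1.21, -1.42 to -1.0). The Id1 ratio stayed between 0.48 and 0.73 in WT and between -1.27 and -0.98 in S1/5 dKO over all alternatives. Id2 was higher in both, with 84.9 against 48.7 CPM in WT (0.80) and 24.9 against 12.5 CPM in S1/5 dKO (0.99). With 1 library per genotype the difference between the libraries was not tested.

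Single cells showed that the WT difference lay in the upper tail. At 20000 UMIs the WT members held a median of 4 Id1 UMIs and a 90th percentile of 25.3, against 3 and 15 in the comparison cells, while 75.8% of them (67.4 to 82.9) held any, against 85.3% (82.9 to 87.5). WT members therefore had both more cells without Id1 and more cells rich in it. In S1/5 dKO the whole distribution was lower, with a median of 0 and a 90th percentile of 4 against 3 and 9, and 42.2% of members (35.4 to 49.2) held an Id1 UMI against 79.4% (76.9 to 81.7). Free RNA held Id1 at 231 CPM in WT and 159 CPM in S1/5 dKO. In S1/5 dKO members with an Fgfbp1 UMI, Id1 was at 63.5 CPM (55.4 to 72.4), and in those without at 106 CPM (95.5 to 118). The order was the other way in WT members, with 601 CPM (569 to 635) in the 59 cells with an Fgfbp1 UMI and 342 CPM (319 to 367) in the 69 without. Otx2 was at 14.1 against 7.72 CPM in the same WT cells and at 18.9 against 8.09 CPM in the S1/5 dKO cells. This split was chosen after values had been seen and was made at full depth.

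**Figure D4:**
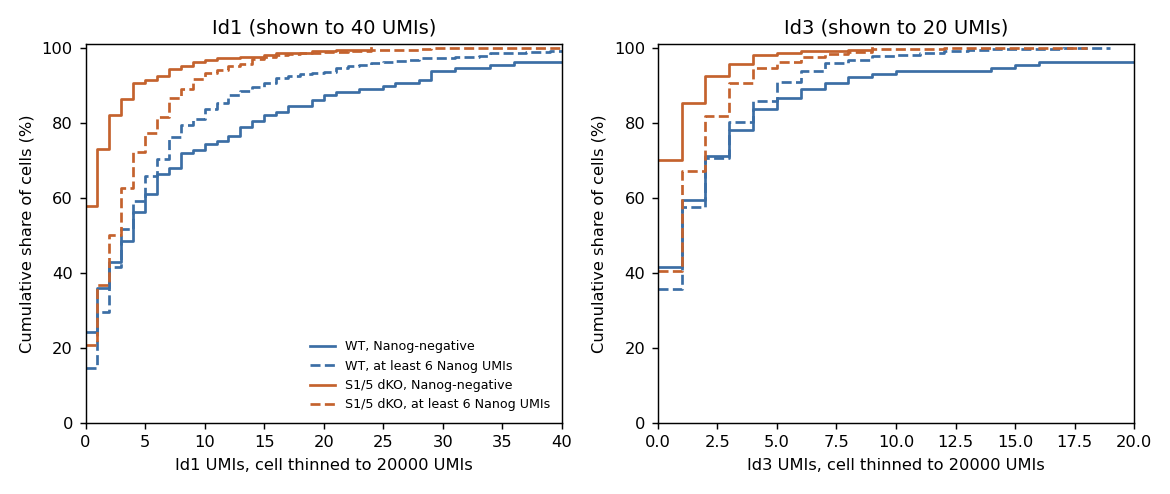
Cumulative percent of cells (y axis) by Id1 UMIs (left, drawn to 40) and Id3 UMIs (right, drawn to 20), each cell thinned to 20000 UMIs. Solid lines are Nanog-negative cells and dashed lines cells with at least 6 Nanog UMIs. The S1/5 dKO members lie to the left of their comparison cells, with 42.2% against 79.4% of cells holding an Id1 UMI, whereas the WT members cross theirs and reach a 90th percentile of 25.3 against 15.

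Krt8 and Krt18, which encode a pair of epithelial keratins, also differed. Krt8 (chr15:101996698-102004482) was at 45.7 against 14.1 CPM in WT (1.69, 1.46 to 1.92) and 4.92 against 13.0 CPM in S1/5 dKO (-1.40, -1.95 to -0.90). In WT 107 of the 204 UMIs came from 1 cell, and without the top cells the ratio was 0.66. That alternative left out only 1 cell of each set, while a pair of WT members was rich in the epithelial and cytoskeletal list. In the split by Fgfbp1, Krt8 was at 87.7 CPM in WT members with an Fgfbp1 UMI. It was at 7.29 CPM (4.25 to 11.7) in those without, against 14.7 CPM (13.4 to 16.0) in comparison cells without one. At 20000 UMIs, Krt8 was detected in 17.2% of WT members against 21.8% of comparison cells, and in 8.53% of S1/5 dKO members against 20.9%. Krt18 had 3.27 in WT, with 89 of 160 UMIs in 1 cell and 2.12 without the top cells, and -0.36 (-1.11 to 0.30) in S1/5 dKO.

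Levels were also summed in cells at each range of Nanog UMIs, without weights for depth. The median depth rose from 33383 UMIs at 0 to 54156 at 10 or more Nanog UMIs in WT, and from 29917 to 48786 in S1/5 dKO. Ube2c of the G2/M list rose as well, from 592 to 942 CPM in WT and from 721 to 1008 CPM in S1/5 dKO. In cells with 0, 1 to 2, 3 to 5, 6 to 9 and at least 10 Nanog UMIs, Klf4 stepped up through 76.6, 98.7, 117, 137 and 153 CPM in WT and through 90.6, 118, 130, 161 and 181 CPM in S1/5 dKO. Mdm2 stepped down through 131, 92.2, 76.9, 69.4 and 51.6 CPM in WT and through 99.1, 75.4, 55.2, 48.0 and 46.0 CPM in S1/5 dKO. Otx2 was at 10.8, 5.73, 4.05, 3.77 and 2.25 CPM in WT and at 13.7, 5.64, 4.30, 4.37 and 2.32 CPM in S1/5 dKO, so the largest step lay between 0 and 1 to 2 UMIs. Anxa2, at 35.2, 9.57, 8.03, 7.34 and 9.86 CPM in WT, differed in that library almost wholly between 0 and 1 to 2 UMIs. In S1/5 dKO its course was more gradual, at 14.5, 8.54, 6.95, 4.84 and 5.54 CPM. Its level in the members leaned on single cells, as given above.

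**Figure D5:**
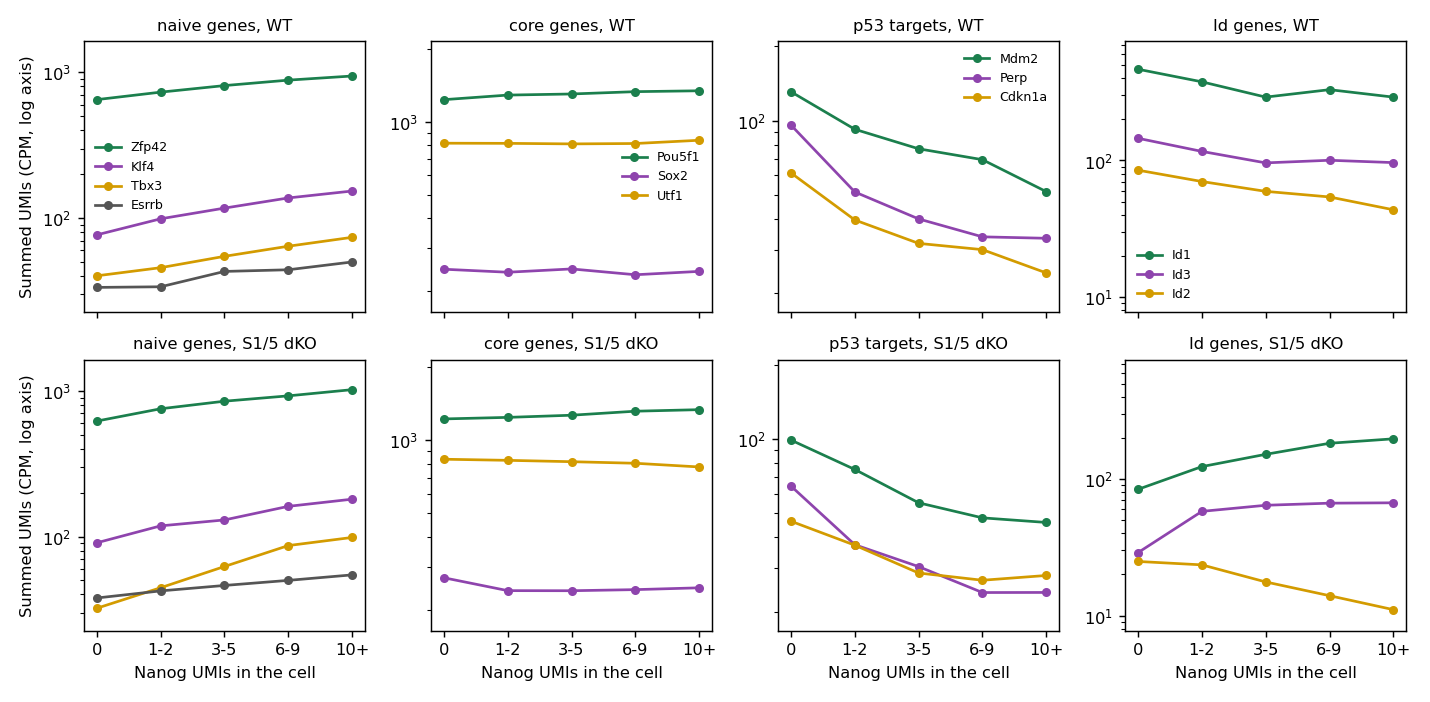
CPM of summed UMIs (y axis, log scale) in cells grouped by their Nanog UMIs (x axis), with WT in the top row and S1/5 dKO in the bottom row. Klf4 stepped up from 76.6 to 153 CPM in WT and from 90.6 to 181 CPM in S1/5 dKO. Pou5f1 was 1234 CPM at 0 and 1343 CPM at 10 or more Nanog UMIs in WT. Id1 was at 466, 377, 291, 330 and 291 CPM in WT, so it did not fall at every step. In S1/5 dKO it rose at every step from 84.1 to 197 CPM.

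The genes most like Nanog across all filtered cells at 20000 UMIs, by the lower Spearman correlation of the libraries (2113 and 2689 cells), were Zfp42 (0.25 in WT and 0.28 in S1/5 dKO), Epop, Zfp57, Klf4, Tubb2b, Tdgf1, Kdm5b, Pdgfa, Tbx3 and Spp1 (0.15 and 0.25). All are weak, and the median over 8770 genes was 0.00573 in WT and 0.00727 in S1/5 dKO. Epop encodes a Polycomb- and Elongin-associated protein and Zfp57 a guardian of imprinted methylation. Their ratios in the Nanog-negative cells were -0.70 and -0.91 for Epop and -0.70 and -0.79 for Zfp57. Both genes were picked by their correlation with Nanog UMIs in the same cells. Ratios below 0 therefore followed from that choice and add nothing to the correlations.

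Few members were rich in transcripts of other cell types. No member of either library had 10 or more UMIs from the 2C list (transcripts of 2-cell-like cells) or from the fibroblast list, and 2 WT and 3 S1/5 dKO members had as many from the primitive endoderm list. The UMIs of Gata6, a defining factor of primitive endoderm, numbered 37 in 7 WT members (25 of them in 1 cell) and 53 in 6 S1/5 dKO members, against 22 and 12 in all comparison cells. The comparison cells held 51767559 and 51650542 UMIs of all genes, against 4465123 and 6709706 in the members. Gata6 was therefore at a higher level in the members, although it did not reach the UMI minimum. Pdgfra and Sox17, further markers of that lineage, were each detected in 2 members per library. With such cells left out, the 6 lower naive genes, Otx2, the 6 higher p53 targets and the 4 higher epithelial genes kept their calls, whereas Sp5, Col4a1 and Sox1 lost theirs. None of the mesoderm and definitive endoderm genes reached the UMI minimum. In the neural list (3 of 8), Tubb3, a neuronal tubulin, was lower (-0.90 and -0.75), as was Sox1 (-0.62, -1.51 to 0.16, and -0.64, -1.26 to -0.09). Sox1 also lost its call under the depth and G2/M weights, with at least 30000 UMIs per cell and against all cells with a Nanog UMI. In the trophoblast list (2 of 7), Tfap2c was higher (0.77 and 0.68), but it lost its call under 4 alternatives, depth weights among them.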

How the data were processed

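The authors made both count matrices with Cell Ranger 3.0.2 and mm10 (per the labels), from droplet libraries of 3′ ends. The deposited values are raw UMI counts per gene and barcode, neither normalised nor filtered to cells. Totals were 100446187 UMIs in WT and 113937221 in S1/5 dKO, and 2262 and 2939 barcodes had at least 1000 detected genes. The libraries are droplet counts, so free RNA and doublets remain; no doublet caller was run, and leaving out deep cells was an alternative instead.

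Cells were filtered and sorted by Nanog UMIs as stated, with Python 3.11.15, scipy 1.17.1 and edgeR 4.0.16 (TMM only). Intervals are exact (Clopper-Pearson or Poisson, 95%) and cover counting error only. Gene coordinates come from GENCODE vM21. The ratio step was checked on simulated counts.

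Members and gene lists were chosen with earlier results of these data known. Genes named are the markers, those of the lists, the 15 highest and 15 lowest joint ratios, Smad1 and Smad5, and the 10 most like Nanog; genes outside these were chosen after their values were seen. Alternatives changed the depth and mitochondrial limits, comparison cells, scaling, UMI minimum, and depth and cell cycle weights. One listed gene, Zscan4a, was not analysed here.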

Additional observations from a re-analysis of the deposited data

Results flagged for a closer look

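Among the 8770 genes compared, 7 were past 1.5-fold in opposite directions in the libraries, which flagged them as differing between the genotypes. The difference itself was not tested, since each genotype was 1 library. Id1 had log2 ratios of 0.59 in WT and -1.18 in S1/5 dKO. Krt8 had 1.69 and -1.40, and the WT value was 0.66 without the top cells. WT members without an Fgfbp1 UMI had Krt8 at 7.29 CPM, against 14.7 CPM in comparison cells without one. Nnat, an imprinted gene, had -1.06 and 0.67, with 8 UMIs in the WT members. Fst, which encodes the activin antagonist follistatin, had 0.63 and -0.81, and the WT value was 0.06 without the top cells. Mtus2 had 0.71 and -0.64, Ube2h 0.65 and -0.73, and Fut11 0.61 and -1.10, each from 12 to 52 UMIs in the members of a library. Intervals for counting error did not overlap between the libraries for 388 genes.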

How the results depend on the processing

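The share of Nanog-negative cells in WT was 6.06%, and 4.78% with at least 30000 UMIs per cell, 4.02% with at least 5000 detected genes and 15.0% after thinning to 20000 UMIs. In S1/5 dKO it was 7.85%, and 5.43%, 4.77% and 14.5% under the same alternatives, and 9.22% with at least 10000 UMIs. The 155 higher and 181 lower genes became 91 and 93 with thinned counts (6634 genes tested), 351 and 359 with a minimum of 50 UMIs (11311 tested), and 41 and 65 with a minimum of 1000 UMIs (4892 tested). The last minimum left 6 genes in the formative and primed list, whose S1/5 dKO median was then 0.086 against 0.48. Gm21761 and Gm5039 changed sign in WT, to 0.82 and 0.14 without cells of over 2 times the median UMIs, and to 1.22 and 0.74 without cells rich in transcripts of other cell types. No other named gene past 1.5-fold in a library changed sign. The 6 naive calls stayed in every alternative that tested them, except that Nr5a2 and Tet2 were lost against all cells with a Nanog UMI. Weighting comparison cells by depth gave 131 higher genes, 112 of them among the 155, and 154 lower genes, 132 of them among the 181. Leaving out the top cells of each gene, an alternative chosen after seeing the data, gave 113 and 256. The cause of these changes was not tested. No paired analysis was possible because each group was 1 library.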

Other observations

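Several groups of genes chosen after their values were seen moved in the Nanog-negative cells, and they are given as values only. The joint shares over all genes were 1.77% higher and 2.06% lower. Of 19 compared histone genes of the Hist clusters, 10 were higher and none lower, with median log2 ratios of 0.75 in WT and 0.72 in S1/5 dKO. Hist1h2bc was at 62.0 against 30 CPM in WT and 36.2 against 23.4 CPM in S1/5 dKO. Of the 10, only Hist1h2ap, Hist1h1b and Hist1h1e were run under the alternatives. All 3 lost their calls under the depth weights, under the G2/M weights and against all cells with a Nanog UMI, and the lowest WT ratios were 0.11, 0.21 and 0.47. Among targets of YAP and of serum response factor, 9 of 17 compared were higher and none lower, including Ctgf, a matricellular protein gene, with 1.03 and 1.54. Of 12 further p53 targets, 6 were higher and none lower, including Apaf1, a component of the apoptosome (1.14 and 0.78).

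On the lower side, 7 of 11 compared genes of the neuronal cytoskeleton were lower and none higher, with medians of -0.72 and -0.84. Of 9 compared genes of RNA and DNA sensing, 6 were lower, including Ddx58, which encodes the sensor RIG-I (-0.82 and -0.90). Of 9 compared genes for Wnt ligands, receptors and their modulators, 5 were lower (Porcn, Fzd10, Sfrp1, Sfrp4 and Dact2). Porcn, the acyltransferase that lipidates Wnt ligands, had -1.07 and -0.70. Sfrp4 and Dact2 lost their calls against all cells with a Nanog UMI, under the depth weights and under the mean over cells. Gja1, a gap junction gene, was higher instead, at 63.4 against 35.1 CPM in WT and 67.7 against 35.0 CPM in S1/5 dKO. Of the genes with values here, Apaf1 lost its call with at least 30000 UMIs per cell and Porcn against all cells with a Nanog UMI. Other counted genes lost theirs under the depth weights, namely Amotl2 and Tpm1 (YAP and serum response factor), Btg2 and Tnfrsf10b (p53) and Irf9 (sensing). Elavl3 (neuronal cytoskeleton) lost its call with at least 30000 UMIs per cell. Not all counted genes were run under the alternatives.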
